A study of Homo sapiens with 19 samples.

Results

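The genomic binding of the oestrogen-related receptor ERRα in BT-474 cells was compared between cells exposed to heregulin (HRG) and cells exposed to vehicle. The members are the 46990 sites obtained by merging the 41271 peaks of the HRG list with the 32259 peaks of the vehicle list wherever they overlapped by at least 1 bp, out of 264623 peaks in the 8 peak lists of the series. A site is called gained when it holds an HRG peak and no vehicle peak, kept when it holds peaks of both lists, and lost when it holds a vehicle peak and no HRG peak. There were 14969 gained sites (31.9%, 95% interval 31.4–32.3%), 25911 kept sites (55.1%, 54.7–55.6%) and 6110 lost sites (13%, 12.7–13.3%).

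BT-474 is a human breast cancer cell line in which ERBB2, the gene encoding HER2, is amplified. The cells of both groups were deprived of serum for 24 h before HRG at 100 μM was given for 90 min, or PBS as the vehicle, and chromatin was then immunoprecipitated with an antibody against ERRα. Each condition is represented by 1 ChIP library of a single cell line, and the input of vehicle-treated cells served as the control for both peak lists. The spread between cultures was therefore not measured, no test of the treatment was possible, and the intervals given here (Wilson, 95%) cover counting error only. The peak lists hold no read counts and no expression values, so that the read depth is unknown and the identity of the cells could not be checked against marker transcripts.

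ERRα is an orphan nuclear receptor that works without a known natural ligand together with PGC-1 coactivators and is best known for its control of genes for mitochondrial respiration. It binds DNA as a dimer or monomer at an extended half-site called the ERRE, whose core is the sequence AAGGTCA. Heregulin, the product of NRG1, is a ligand of HER3 and HER4 that brings these receptors together with HER2 and activates the MAP kinase and PI3K pathways. MAP kinase signalling in turn increases the activity of AP-1, a dimer of FOS and JUN family proteins that binds the words TGACTCA and TGAGTCA.

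The DNA of some of the strongest sites is shown. Each line gives the 200 bp around a peak centre on the plus strand of hg19 (GRCh37), with the ERRE word TCAAGGTCA or its reverse complement, and the AP-1 words, in capitals. Among the gained sites considered for printing, the highest-scoring one with an ERRE was also the highest-scoring one with an AP-1 word (score 2416.53, the authors' MACS score, described further on), and it lies between genes, 34992 bp from the start of CTDSP2. The strongest such sites with only 1 of the words follow. They are an intergenic AP-1 site 246912 bp from the start of RPS6KA3 (score 1503.18) and an ERRE site in an intron of KCNMA1 (score 618.14). Kept sites are shown by the strongest one with both words, 17910 bp from the start of OLFM4 (HRG score 3190.8), and by the ESRRA promoter peak around its centre on vehicle (score 3100). Its ERRE was not counted among kept sites, where words were sought around the HRG centre. The strongest lost site with an ERRE lies 43162 bp from the start of WT1 (vehicle score 266.61).
gained, both words, chr12:58275404-58275603: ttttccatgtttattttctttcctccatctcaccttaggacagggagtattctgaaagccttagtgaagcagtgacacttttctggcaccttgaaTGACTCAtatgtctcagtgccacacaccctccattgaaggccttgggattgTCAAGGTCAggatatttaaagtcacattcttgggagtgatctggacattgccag
gained, AP-1 word, chrX:20532449-20532648: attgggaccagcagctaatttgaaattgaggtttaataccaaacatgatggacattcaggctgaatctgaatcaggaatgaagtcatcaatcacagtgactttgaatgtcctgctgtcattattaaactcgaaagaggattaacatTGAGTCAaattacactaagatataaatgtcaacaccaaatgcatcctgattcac
gained, ERRE word, chr10:79024134-79024333: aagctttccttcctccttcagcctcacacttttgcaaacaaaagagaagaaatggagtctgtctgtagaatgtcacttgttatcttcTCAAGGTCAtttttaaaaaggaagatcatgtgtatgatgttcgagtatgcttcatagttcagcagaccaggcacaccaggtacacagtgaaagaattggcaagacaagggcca
kept, both words, chr13:53584938-53585137: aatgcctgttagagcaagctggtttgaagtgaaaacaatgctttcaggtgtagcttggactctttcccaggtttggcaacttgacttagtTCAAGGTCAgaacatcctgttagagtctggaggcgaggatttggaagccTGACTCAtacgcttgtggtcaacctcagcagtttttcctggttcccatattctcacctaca
kept, ESRRA promoter, chr11:64072266-64072465: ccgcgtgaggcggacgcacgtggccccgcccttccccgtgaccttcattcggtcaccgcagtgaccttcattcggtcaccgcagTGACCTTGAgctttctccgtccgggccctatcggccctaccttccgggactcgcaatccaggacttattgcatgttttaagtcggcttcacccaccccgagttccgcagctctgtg
lost, ERRE word, chr11:32500172-32500371: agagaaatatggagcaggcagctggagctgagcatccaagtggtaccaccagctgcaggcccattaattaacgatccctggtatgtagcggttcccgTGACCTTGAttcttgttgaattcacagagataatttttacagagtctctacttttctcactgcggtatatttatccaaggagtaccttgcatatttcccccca

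The number of gained sites rested on weak peaks. The score of a peak, taken here as −10 log10 of the MACS P value because it starts at 50 in both lists, depends on the depth of the library. Scores of both lists are given side by side, and since the lists differ in length, a direction is read only from the rank among kept sites, described further on. Gained sites had a median score of 74.2 (quartiles 58.9 and 109), against a median of 262 on HRG (quartiles 123 and 645) at kept sites. Lost sites had a median vehicle score of 75.5 (quartiles 59.6 and 106), against 227 (quartiles 110 and 561) at kept sites. Of all HRG peaks 36.3% were gained, and the share went from 75.7% (74.3–76.9%) in the weakest 10% of the peaks to 0.751% (0.530–1.06%) in the strongest 10%. Of all vehicle peaks 18.9% were lost, with 52.9% (51.1–54.6%) in the weakest 10% and 0 of 3225 in the strongest, which allows a share of up to 0.119%. From a score of 500 upwards, 131 of 8148 HRG peaks (1.61%, 1.36–1.90%) were gained and 8 of 7114 vehicle peaks (0.112%, 0.0570–0.222%) were lost. Strong sites were thus mostly called under both conditions.

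The balance of gained and lost sites also followed the length of the lists. When the HRG list was shortened by score to the 32259 peaks of the vehicle list, 8347 sites were gained and 8408 were lost. Lists of equal length give nearly equal counts by construction, as 97.9% of kept sites held 1 peak of each list in the full comparison. The setting therefore cannot show whether gained sites were in excess. With both lists held to a score of at least 100, 7394 sites were gained and 4019 lost. Near misses of the 1 bp rule were few, while a rule on peak centres gave other classes. With centres required within 100 bp, there were 27713 gained, 13558 kept and 18701 lost sites. A vehicle peak lay within 1 kb of 679 gained sites (4.54%), an HRG peak lay within 1 kb of 386 lost sites (6.32%), and the median gaps were 24802 bp and 15793 bp. Overlapping peaks shared a median of 1932 bp, and only 83 of 26540 overlapping pairs shared 100 bp or less.

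**Figure D1:**
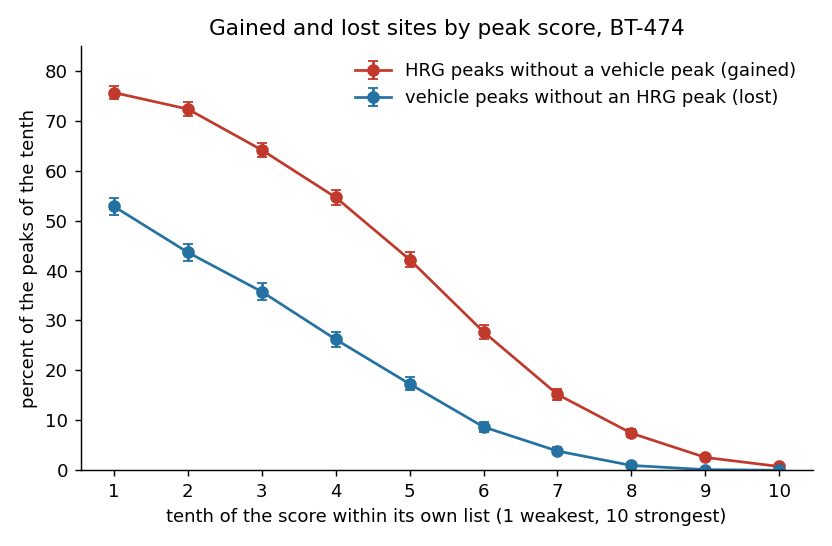
Percent of HRG peaks without a vehicle peak (gained) and of vehicle peaks without an HRG peak (lost) in 10 score bins of equal size within its own list, with 95% Wilson intervals as bars. Both shares are lower in each stronger bin, from 75.7% to 0.751% for gained and from 52.9% to 0 of 3225 peaks for lost, and the gained share is the higher one in every bin.

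The strongest gained sites lay both at promoters and far from any start. A score of 3100, a value at which many strong peaks of these lists stop, was reached by 7 gained sites. Of these, 3 were at promoters. They were those of UCP2, a mitochondrial inner membrane carrier (chromosome 11, 73690332–73693939, centre 153 bp from the start), of EMSY, which encodes a partner of BRCA2 (chromosome 11, 76153316–76156811, 998 bp), and of PLXDC1, a transmembrane protein of blood vessels (chromosome 17, 37307937–37314363, 503 bp). The other 4 were a site 29548 bp from HMGB1P1 on chromosome 20, a site 53039 bp from PRELP, a proteoglycan gene on chromosome 1, a site 48410 bp from AMELX on the X chromosome, and a site on chromosome 8 that lay 439224 bp from the nearest start. The next in rank was an intronic site of YAP1, the effector of the Hippo pathway, with a score of 2740.06 at 8341 bp from a start. Only 1 of the 8 carried the ERRE half-site word AAGGTCA within 100 bp of its centre, and another 1 an AP-1 word.

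Most of these 8 sites were also called in other lists of the series. All 8 overlapped a peak in the list of BT-474 cells given EGF, which rests on the same input. The shares of all gained and all lost sites in that list were not counted. Of the 8, 5 overlapped a peak in SKBr3 cells given vehicle and 6 in SKBr3 cells given HRG, beside 16.4% and 17.6% of all gained sites. SKBr3 is another line with amplified ERBB2, and its lists share no library with those of BT-474. In the SKBr3 vehicle list the UCP2 site had a score of 3200.06, the PRELP site 3073.89 and the EMSY site 2164.31, so that these sites were strongly called without HRG in the other line.

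The strongest lost sites lay on 6 chromosomes. The highest vehicle score among them was 1087.87 (percentile 89.2 of the vehicle list), at the promoter of TRIQK on chromosome 8, followed by a site 78659 bp from MBIP on chromosome 14 (842.66) and one 23710 bp from ANGPT1, the ligand of the TIE2 receptor (759.73). The VPS51 promoter, whose gene encodes a subunit of an endosomal tethering complex, had a lost peak centred 3 bp from the start (chromosome 11, 64862652–64864527, score 595.86). It overlapped peaks of both SKBr3 lists, with scores of 671.28 on vehicle and 1318.1 on HRG. The lost site 5914 bp from AGFG1 (546.05) was a near miss, since an HRG peak lay 119 bp away. The remaining ones in the first 8 lay 10018 bp from ANXA13, 16376 bp from SRP14 and 280688 bp from THAP6, with scores from 501.81 to 543.42. None of the 8 carried the ERRE half-site or an AP-1 word. In the EGF list 5 of the 8 were also called, TRIQK with a score of 597.15. Among kept sites the highest HRG score (3233.06) was at the promoter of NDUFAF4, an assembly factor of respiratory complex I, where the vehicle score was 3100. The next 3 kept sites lay far from their nearest starts, at 158894 bp from DCC, 146968 bp from FUT10 and 464017 bp from HSBP1, each with an HRG score of 3230.05.

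Parts of the genome around ERBB2 held almost no peaks. The vehicle list had no peak between positions 36414699 and 38256526 of chromosome 17, a stretch of 1.84 Mb with 44 whole protein-coding genes, ERBB2 among them. In comparison, the 99th percentile of the distance between neighbouring vehicle peaks was 675437 bp. The HRG list had 2 peaks in the stretch, one of which was the gained PLXDC1 site. Of 21 genes listed for the ERBB2 amplicon, 20 had no peak of either list within 20 kb, and the exception was NR1D1, the REV-ERBα gene at the end of the stretch. The HMGB1P1 site likewise stood alone, in a stretch of 2.15 Mb without a vehicle peak on chromosome 20. Both SKBr3 lists also had peak-free stretches around ERBB2, of 1.63 Mb on vehicle and 1.61 Mb on HRG, but these lay farther along the chromosome, and 22 SKBr3 vehicle and 33 SKBr3 HRG peaks fell inside the BT-474 stretch. Among the 131 gained sites with scores of 500 or more, 12 (9.16%) were on chromosome 17 and 8 (6.11%) on chromosome 20, where 2.84% and 2.15% of all HRG peaks of that score lay. The part of gene copy number in these calls was not tested, as the lists hold no input reads.

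Gained sites lay farther from genes than lost sites. A promoter, taken as the 1 kb to each side of a transcription start of a protein-coding gene, held 448 gained sites (2.99%, 2.73–3.28%), 2108 kept sites (8.14%, 7.81–8.47%) and 898 lost sites (14.7%, 13.8–15.6%). The share was 11.7 percentage points higher at lost than at gained sites (10.8–12.7). Sites over 100 kb from any start made up 37.2% of gained, 27.8% of kept and 26.8% of lost sites. Introns held 44.9% of gained, 44.5% of kept and 39.7% of lost sites, and the intergenic shares were 50.3%, 45.6% and 43.6%.

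The classes were unevenly spread along the chromosomes. Chromosome 19 had the lowest share of gained HRG peaks, 21.0% (18.1–24.3%), and the highest share of lost vehicle peaks, 27.2%, and it alone had more lost (189) than gained (136) sites. The gained share was highest on chromosome 4 (43.0%) and chromosome 13 (41.9%). In 500 windows of 5 Mb with at least 40 sites, the gained share had a median of 32.3% and reached 68.8% (55 of 80 sites) on chromosome 5 from 25000001 to 30000000. The lost share had a median of 12.4% and reached 44.4% (24 of 54 sites) on chromosome 9 from 135000001 to 140000000, and 26 windows had more lost than gained sites.

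Base composition differed between the classes in the same direction. The GC content of the 200 bp around the centre was 37.3% ± 7.79 (SD, 14969 sites) at gained sites, 42.1% ± 8.68 at kept sites and 43.6% ± 10.5 at lost sites. Windows 2 kb to each side had 40.2%, 42.7% and 43.1%, so that gained sites were lower in GC than their own surroundings. Lost sites were above theirs only at promoters (54.2% against 46.2%). More than 1 kb from a start the means were 37.1% at gained, 41.5% at kept and 41.8% at lost sites, so that kept and lost sites were close there. Among these distal sites the gained share went from 48.5% (47.7–49.4%) where GC was under 35% to 8.84% where it was 60% or more, while the lost share went from 10.1% (9.57–10.6%) to 28.2% (25.1–31.4%). Gained promoter sites had a mean GC content of 43.3%. A difference in GC recovery between the 2 libraries and a difference in binding cannot be told apart with 1 library per condition, and this bears on the promoter and chromosome shares as well.

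**Figure D2:**
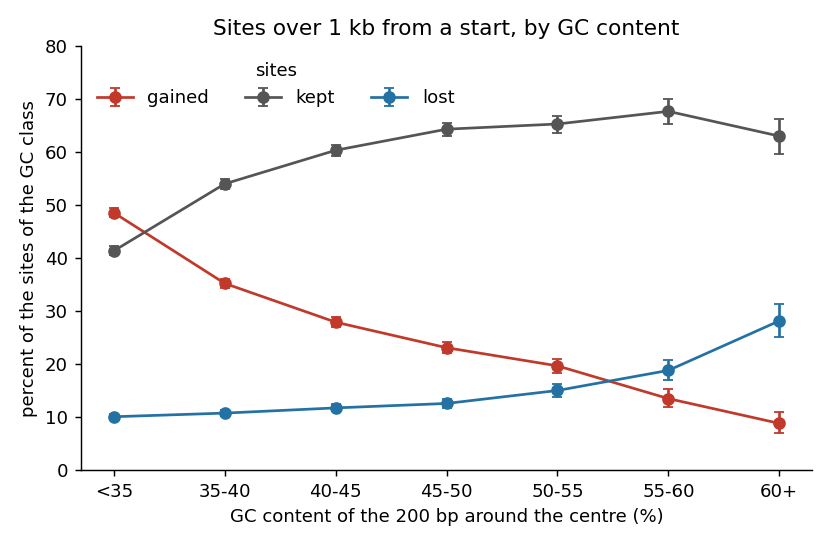
Percent of gained, kept and lost sites among sites more than 1 kb from a transcription start, by GC content of the 200 bp around the peak centre, with 95% Wilson intervals as bars. Gained sites make up 48.5% of the sites with GC under 35% and 8.84% of those with 60% or more, lost sites 10.1% and 28.2%, and kept sites are the largest class from 35% upwards.

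The ERRE marked all classes and was most frequent at kept sites. The word TCAAGGTCA was found within 100 bp of the centre, on either strand, at 5.58% of all sites. It was present at 689 gained sites (4.60%, 4.28–4.95%), 1698 kept sites (6.55%, 6.26–6.86%) and 234 lost sites (3.83%, 3.38–4.34%), against 0.301%, 0.253% and 0.221% of flanking windows of the same width 2 kb away. Around the centres of the vehicle peaks, the kept share was 7.02% (6.71–7.33%) for the ERRE and 6.56% (6.27–6.87%) for the AP-1 words described next. Kept sites exceeded gained sites by 1.95 percentage points (1.49–2.40) and gained sites exceeded lost sites by 0.773 points (0.168–1.34). Within 50 bp of the centre the latter difference was 0.293 points (−0.160 to 0.710), an interval that includes 0. The shorter core AAGGTCA, which is contained in the ERRE word, was at 19.2% of all sites and gave the same order, with 16.0% of gained, 22.2% of kept and 14.5% of lost sites against 3.36 to 3.50% of flanks. In a count of all words of 8 letters, CAAGGTCA had the largest excess over the flanks in every class, at 9.40% of gained, 14.3% of kept and 8.99% of lost sites. Of the 2 bases before the core, TC was the most frequent pair and CC the next (3.34%, 5.72% and 3.47%).

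AP-1 words were more frequent at gained than at kept sites and least frequent at lost sites. They were at 6.82% of all sites, and at 1274 gained sites (8.51%, 8.07–8.97%), 1739 kept sites (6.71%, 6.41–7.02%) and 194 lost sites (3.18%, 2.76–3.65%), with 3.09%, 3.18% and 3.16% of the flanks. Gained sites thus exceeded kept sites by 1.80 percentage points (1.26–2.35) and lost sites by 5.34 points (4.69–5.95), while lost sites were at the level of their flanks. Within the HRG list cut into 4 score bins of equal size, the AP-1 share of gained sites was 6.56% and 9.32% in the weaker bins and 12.8% and 15.9% (11.9–20.9%, 40 of 252 sites for the last) in the stronger ones. Kept sites in the same bins had 4.58%, 6.03%, 6.75% and 7.59%. Within the vehicle list the share at kept sites went the other way, from 8.19% in the weakest to 5.79% in the strongest bin, and lost sites had 3.33%, 3.03%, 2.61% and 0 of 18 sites. The words ATGAGTCA and ATGACTCA, which hold AP-1 words, were among the 10 words of largest excess at gained sites (3.28% and 3.21%), and were at 0.769% and 1.06% of lost sites.

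The AP-1 share was higher at gained than at kept sites in each range of GC content, with overlapping intervals in the lowest. Among sites more than 1 kb from a start, the AP-1 share of gained sites was 5.37% (4.82–5.97%) where GC was under 35%, and that of kept sites 4.60% (4.05–5.20%). At a GC content of 40 to 45% the shares were 11.5% (10.3–12.8%) and 7.54% (6.86–8.27%), and from 50% upwards 14.7% (12.6–17.1%) and 7.91% (7.09–8.81%). The corresponding lost sites had 2.65%, 3.14% and 3.67%. The ERRE core kept its order too, with 22.9% of gained, 26.3% of kept and 17.7% of lost sites at a GC content of 40 to 45%. At gained sites the intervals overlapped for AP-1 words with and without the ERRE core, at 9.26% (8.16–10.5%) and 8.37% (7.90–8.87%). Most sites of every class held neither, namely 77.0% of gained, 72.6% of kept and 82.7% of lost sites.

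**Figure D3:**
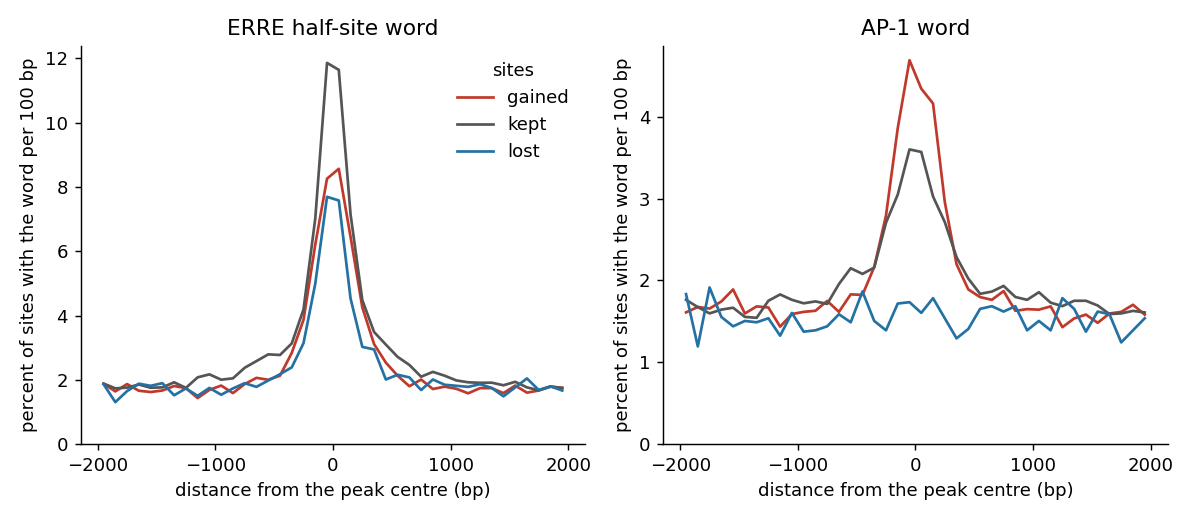
Percent of gained, kept and lost sites with the ERRE half-site word AAGGTCA (left) and an AP-1 word (right) in steps of 100 bp from the peak centre. The half-site peaks at the centre in all classes and highest at kept sites, whereas the AP-1 words peak at gained and kept sites and stay at the level of the surroundings at lost sites.

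The words of other factors of breast epithelium followed no single order. The GATA words AGATAAG and TGATAAG were at 7.29% (6.88–7.72%) of gained, 6.72% (6.42–7.03%) of kept and 6.55% (5.95–7.19%) of lost sites, against 5.24%, 4.98% and 5% of flanks. The FOX words TGTTTAC and TGTTTGC, bound by forkhead proteins such as the pioneer factor FOXA1, were at 11.9% of gained, 13.9% of kept and 13.2% of lost sites, against 6.60%, 6.01% and 6.15% of flanks. The AP-2 word GCCNNNGGC was at 2.95% (2.69–3.24%) of gained sites, near its flank of 2.65%. It was at 6.12% of kept and 7.15% of lost sites, against 3.78% and 3.99% of flanks. This word is GC-rich. At gained, kept and lost sites over 1 kb from a start it was at 2.52%, 2.90% and 2.22% where GC was 35 to 40%. From 50% upwards the shares were 10.7%, 15.6% and 17.9%. The grainyhead-like word AACCNGTT was at 1.94% (1.73–2.17%), 2.94% (2.74–3.15%) and 2.62% (2.25–3.05%). The ETS word CCGGAAG, common at promoters, was at 0.341% (0.259–0.448%) of gained and 1.85% (1.54–2.22%) of lost sites. The full oestrogen response element GGTCANNNTGACC was rare, at 19 gained, 73 kept and 4 lost sites. A matching word is a description of the sequence and does not show that the factor was bound.

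At kept sites the strength of binding could be followed by rank. Each of the 25911 kept sites was ranked by score in the HRG list and in the vehicle list, as a percentile among kept sites. The ranks had a Spearman correlation of 0.773 across sites, which share the input library, and the median shift in either direction was 10.4 points. On HRG, 2500 kept sites (9.65%) ranked higher by more than 25 points and 2421 (9.34%) ranked lower by more than 25 points. AP-1 words were at 12.5% (11.2–13.8%) of the sites that ranked higher, 6.36% (6.04–6.70%) of those that moved by 25 points or less, and 3.80% (3.11–4.64%) of those that ranked lower. The mean GC contents of these groups were 39.6%, 42.0% and 45.9%, and 3.12%, 7.79% and 16.3% of them lay at promoters. The FOX words were nearly even, at 14.5% (13.2–16.0%) and 13.1% (11.8–14.5%) of sites that ranked higher and lower. Kept sites that moved therefore differed in the same order as gained and lost sites, in AP-1 words, GC content and promoters, and without promoter sites the AP-1 shares of the first 2 groups were 12.4% and 6.48%.

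Genes named by the study as ERRα targets were followed by the rank of their kept sites. For TFF1 and the ESRRA promoter the study reported binding. It named GSR, GPX1, SOD2 and SOD3 for their expression in SKBr3 cells, and SOD2 was not followed here. TFF1, an oestrogen-responsive secreted factor on chromosome 21 (43782391–43786644), had a promoter peak on vehicle (score 1041.09, rank 85.9 among kept sites) and on HRG (1947.67, rank 91.9). A further TFF1 site about 10 kb away was kept at 114.57 on vehicle and 64.55 on HRG (ranks 26.6 and 6.94), and a weak peak 2854 bp from the start was gained (60.6). ESRRA, the gene of ERRα itself, had 5 kept sites and reached 3100 at its promoter under both conditions. The other 4 ESRRA sites moved in different directions. Their scores were 369.87, 698.68, 438.64 and 177.5 on vehicle (ranks 64.7, 79.6, 69.3 and 41.8) and 99.57, 195.53, 64.26 and 418.28 on HRG (ranks 18.9, 40.3, 6.83 and 64.4). The last, the only one that ranked higher on HRG, was also the only one with an AP-1 word.

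GSR, encoding glutathione reductase, had 2 kept sites with vehicle scores of 2192.93 and 1384.28 (ranks 93.9 and 89.7) and HRG scores of 1676.3 and 958.59 (ranks 90.4 and 82.6). GPX1, a glutathione peroxidase gene, had a kept site with an ERRE about 19 kb from its start (79.18 on vehicle and 71.4 on HRG, ranks 13.9 and 9.49). SOD3, the extracellular superoxide dismutase gene, had a lost site 6656 bp from its start (82.39) and a gained one at 9047 bp (50.78), both weak. ERBB2 had no peak in either list.

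Genes were assigned to a site when a transcription start lay within 20 kb of a peak centre, one of the distances used in the study. Of 20136 protein-coding genes, 11535 (57.3%) had a peak of at least 1 list and 8299 (41.2%) a kept site, while 4311 (21.4%) had a gained site and 3350 (16.6%) a lost site. Gained-only genes, with a gained site and no vehicle peak in range, numbered 1674 (8.31%), and lost-only genes, with a lost site and no HRG peak in range, 1240 (6.16%). The positions differed, as 207 gained-only genes but 448 lost-only genes had such a site within 1 kb of a start. The order of these counts turned with the list length. With the HRG list at the size of the vehicle list there were 952 gained-only and 1894 lost-only genes. Both a gained and a lost site were in range of 887 genes.

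**Figure D4:**
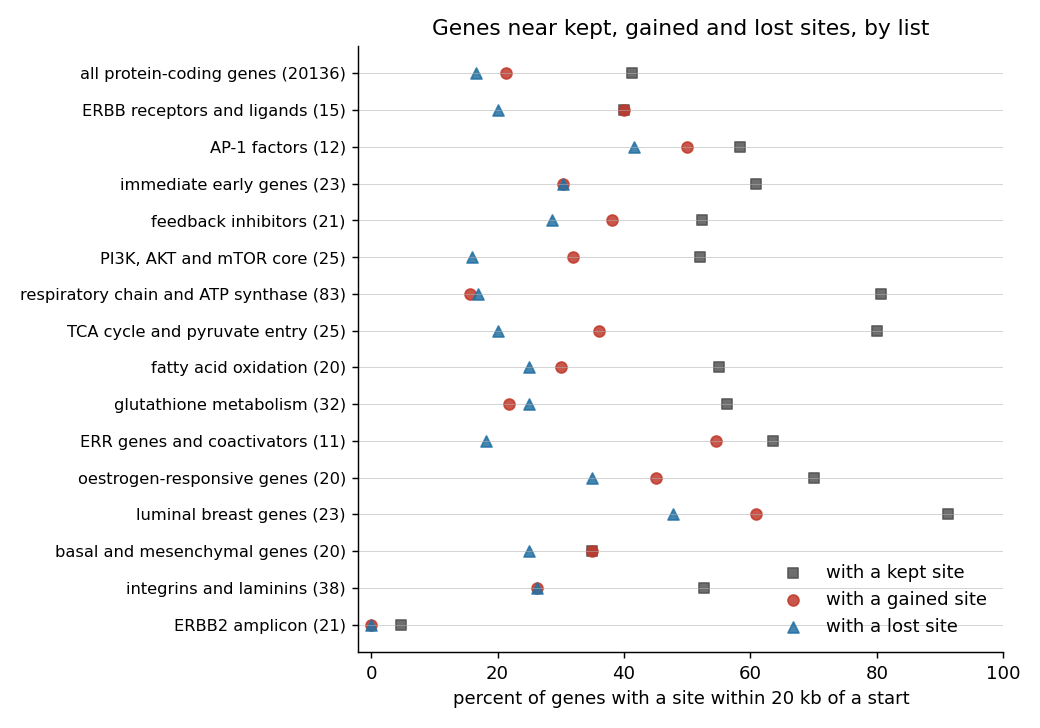
Percent of the genes of each list, with the number of genes in brackets, that had a kept, gained or lost site within 20 kb of a transcription start. Kept sites are near 80.7% of respiratory chain genes and 91.3% of luminal genes, against 41.2% of all protein-coding genes, and the ERBB2 amplicon has almost none.

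Receptors and ligands of the ERBB family had sites in all classes. Of 15 genes, 6 (40%) had a kept, 6 (40%) a gained and 3 (20%) a lost site, beside 41.2%, 21.4% and 16.6% of all genes. ERBB3, the heregulin receptor that pairs with HER2, had a kept site at 3100 in both lists. ERBB4, the other heregulin receptor, had 3 kept sites and no gained one, and EREG, the epiregulin ligand gene, had its best peak at 1004.1 on vehicle (rank 85.4 among kept sites) and 3100 on HRG (97.6). The gained-only genes were the ligands NRG4 (126.62, in an intron 2963 bp from a start) and EPGN (76.18), and EGFR was lost-only through a weak site 17682 bp away (71.05). NRG1, TGFA, AREG and HBEGF had no peak in range.

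Genes of the growth factor response and of PI3K signalling had kept sites in 52 to 60.9% of the genes of 4 lists, beside 41.2% of all genes. Of 12 AP-1 factor genes, 7 had a kept site, 6 (50%) a gained and 5 (41.7%) a lost one, beside 21.4% and 16.6% of all genes for gained and lost, and the gained-only ones were JUND (74.37) and BATF3 (66.96). At the kept sites nearest to the starts of the 7 AP-1 factor genes, 3 ranked higher on HRG by more than 1 point, 3 ranked lower and 1 moved by less. Among 23 immediate early genes 14 had a kept site. EGR4 (59.77) and the mRNA decay factor gene ZFP36 (51.75) were gained-only, and EGR3 (56.74) was lost-only, all with scores near the threshold. Of 21 feedback inhibitors of the pathway, 11 had a kept site. CBL, a ubiquitin ligase of ERBB receptors (57.79), and the ERK phosphatase gene DUSP5 (55.78) were gained-only, while DUSP10 (52.96) and SOCS3 (52.1) were lost-only. In the PI3K, AKT and mTOR list of 25 genes, RICTOR (94.89) and PIK3CA (68.29) were gained-only. TSC1 (97.26, 11 bp from a start), PDPK1 (55.03) and MTOR (54.65) were lost-only with promoter peaks, those of PDPK1 and MTOR near the threshold. Shares of gained-only genes of 13.3%, 16.7%, 8.70%, 9.52% and 8% in these 5 lists rest on 2 genes each, beside 8.31% of all genes. Lost-only genes numbered 1, 0, 1, 2 and 3 in the same lists, a class that takes 6.16% of all genes.

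Mitochondrial genes were mostly near kept sites. Of 83 genes of the respiratory chain and ATP synthase, 67 (80.7%) had a kept site, 13 (15.7%) a gained and 14 (16.9%) a lost one, beside 41.2%, 21.4% and 16.6% of all genes. Gained-only were ATP5MC1, a subunit of ATP synthase (466.29, in an intron 1244 bp from a start), and the complex I subunit gene NDUFA8 (190.01, promoter). Lost-only were ATP5MK (170.63), NDUFB2 (150.97) and NDUFV1 (127.88), all at promoters, a class that takes 6.16% of all genes. Of 25 genes of the tricarboxylic acid cycle and pyruvate entry, 20 had a kept site, and PDK3, a pyruvate dehydrogenase kinase (58.53), was the gained-only one. Of 20 fatty acid oxidation genes, 11 (55%) had a kept site, beside 41.2% of all genes. The list held 2 gained-only genes (10%, beside 8.31%), CPT1B (93.75) and ACADL (51.36), and 4 lost-only genes, a class that takes 6.16% of all genes. The latter were ACAA2 (281.85), CPT2 (76.69), ACADVL (55.81) and HADH (55.19), all enzymes of the pathway.

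The kept sites of respiratory genes ranked lower on HRG. For the kept site nearest to a start of each of the 67 genes, the median shift was −12.8 points, with 57 lower by more than 1 point, 8 within 1 point and 2 higher. Over all 8281 genes with a kept site around its HRG centre the median shift was −3.20 points, and 4656 (56.2%) were lower by more than 1 point. NDUFS3, a core subunit of complex I, had a promoter peak with a score of 651.65 on vehicle and 78.09 on HRG, at ranks of 78.3 and 11.9 among kept sites. SDHB, the iron-sulphur subunit of complex II, had 385.42 and 50.77 (ranks 65.8 and 0.608), and UQCRC1, a core protein of complex III, 310.18 and 50.49 (ranks 59.7 and 0.425). Among subunits of cytochrome c oxidase, COX6B1 had 698.48 and 125.04 (ranks 79.6 and 25.5), and COX4I1 had 1095.24 and 167 (ranks 86.7 and 34.8). The exceptions that ranked higher on HRG were ATP5PD (percentile 4.44 on vehicle and 12.8 on HRG) and ATP5F1E (26.2 and 41.4).

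These respiratory sites were GC-rich and strong to begin with, and both features moved with rank among all genes. Their mean GC content was 54.8% ± 9.64 (SD, 67 sites), and their median rank on vehicle was 83.0. Most of them also lay within 1 kb of a start. Promoters held 16.3% of the kept sites that ranked lower on HRG by more than 25 points and 3.12% of those that ranked higher. Where vehicle ranks were between 50 and 75, 19 of 19 respiratory genes and 68.7% of all genes were lower on HRG by more than 1 point, and between 75 and 95 the counts were 31 of 33 and 69.2%. Of respiratory sites with a GC content under 50%, 15 of 15 were lower, against 41.6% of all genes where GC was under 40% and 54.0% where it was 40 to 50%. The part of GC content, vehicle rank and promoter location in the shift was not tested. The 20 genes of the tricarboxylic acid cycle list had a median shift of −0.347 points. One of them, the malate dehydrogenase gene MDH2, ranked at 88.7 on vehicle and 31.6 on HRG.

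**Figure D5:**
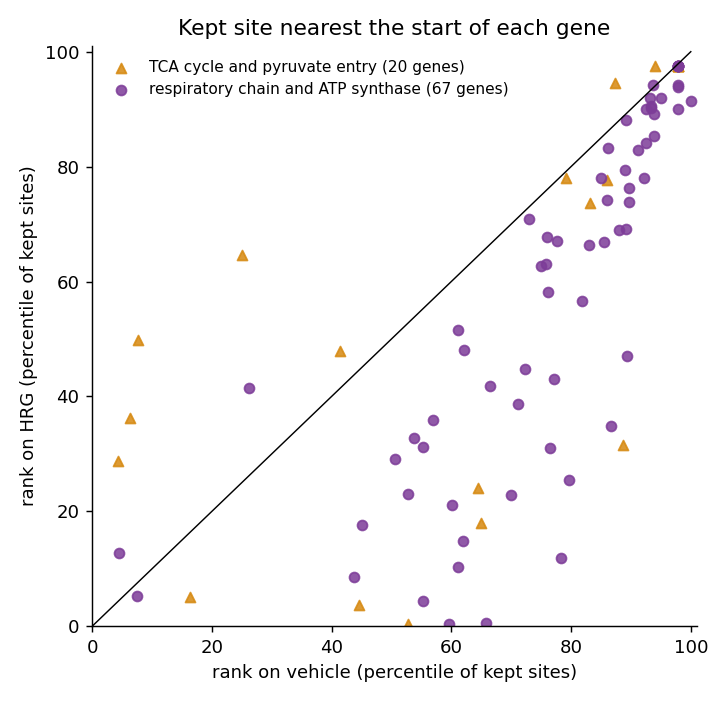
Rank of the kept site nearest to a start of each gene on HRG against its rank on vehicle, both as percentiles among the 25911 kept sites, for 67 genes of the respiratory chain and ATP synthase and 20 genes of the tricarboxylic acid cycle and pyruvate entry; the line marks equal rank. Of the respiratory genes 57 lie more than 1 point below the line and 2 more than 1 point above it.

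Of 32 glutathione genes, 18 (56.3%) had a kept site, beside 41.2% of all genes. SLC7A11, the cystine transporter gene, was gained-only with 2 sites (best 255.04, 16298 bp from a start), as was GPX8 (88.67, promoter), and GGT1 was lost-only (80.66). Of 11 genes for ERR receptors and their coactivators, 7 (63.6%) had a kept and 6 (54.5%) a gained site, beside 41.2% and 21.4% of all genes. PPARGC1A, encoding the coactivator PGC-1α, was gained-only through an intronic peak 3374 bp from a start (163.9), whereas PPARGC1B had 3 kept sites, the best at 511.27 on vehicle (rank 73.1) and 1002.7 on HRG (83.3).

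Of 23 luminal genes, 21 (91.3%) had a kept site, 14 (60.9%) a gained and 11 (47.8%) a lost one, beside 41.2%, 21.4% and 16.6% of all genes, and none was gained-only. The best peaks of XBP1 and KRT8, a luminal transcription factor and a luminal keratin, reached 3100 in both lists, while that of FOXA1 was 1580.38 on vehicle (rank 91.1) and 268.33 on HRG (50.9). MUC1 was lost-only (71.8). Of 20 basal and mesenchymal genes, 7 (35%) had a kept site, near the share of all genes. TP63, the basal p53 family member, was gained-only with 4 sites (best 134.53), as were TWIST1 (119.27) and ZEB2 (66.32), which encode factors of epithelial-mesenchymal transition. The 3 gained-only genes are 15.0% of the list, beside 8.31% of all genes. Of 20 oestrogen-responsive genes, 14 (70%) had a kept and 9 (45%) a gained site, beside 41.2% and 21.4% of all genes. IGFBP4 (285.31), STC2 (75.28) and ADCY9 (50.66) were lost-only, a class that takes 6.16% of all genes. These lists describe where peaks lie and not which genes were expressed.

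Integrin and laminin genes held 4 of the gained-only genes. Of 38 genes, 20 (52.6%) had a kept, 10 (26.3%) a gained and 10 (26.3%) a lost site, beside 41.2%, 21.4% and 16.6% of all genes. LAMC1, a laminin chain, had 2 gained sites (best 279.27, in an intron 1758 bp from a start), and ITGB1, the β1 integrin, had 3 (best 93.9, 17903 bp away). ITGA1 (77.03) and ITGA4 (54.13) were the other gained-only genes, and ITGA10 (148.4) and LAMA2 (73.32) were lost-only. The gained-only share was 10.5%, beside 8.31% of all genes, and lost-only genes are 6.16% of all genes.

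The largest single shifts at kept sites near listed genes, picked after their values were seen, went in both directions. An intergenic ERBB4 site had a score of 52.56 on vehicle and 239.98 on HRG, at ranks of 1.47 and 47.1 among kept sites. An intronic AGR2 site, near a secreted disulphide isomerase gene, had 158.94 and 867.15 (ranks 37.9 and 80.9), and a site near PDK2, a pyruvate dehydrogenase kinase, had 65.12 and 259.73 (ranks 7.62 and 49.7). Downwards, a site 18909 bp from the integrin gene ITGA5 had 433.16 on vehicle and 50.49 on HRG (ranks 69.0 and 0.425), and an intronic site of PRLR, the prolactin receptor gene, had 654.34 and 125.25 (ranks 78.4 and 25.6).

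The SKBr3 lists, which share no library with BT-474, held fewer gained than kept sites. Of gained sites 16.4% (15.8–17.0%) overlapped a peak of SKBr3 cells on vehicle and 17.6% (17.0–18.2%) one of SKBr3 cells on HRG. The shares at kept sites were 49.7% and 46.7%, and at lost sites 26.4% and 28.3%. Sites called in SKBr3 on HRG but not on vehicle made up 8.21% (7.78–8.66%) of gained, 8.59% (8.26–8.94%) of kept and 10.9% (10.2–11.7%) of lost sites. Sites called in SKBr3 on vehicle but not on HRG made up 7.05%, 11.5% and 9.02%. The SKBr3 HRG list is the longer one, with 37195 against 32183 peaks. As shares of all sites, HRG-specific SKBr3 peaks were thus not more frequent at gained than at kept or lost BT-474 sites. No peak of either SKBr3 list was found at 75.4% of gained, 41.7% of kept and 62.7% of lost sites. Of gained sites with an SKBr3 peak, 1229 were in the HRG list only, 1056 in the vehicle list only and 1403 in both. For kept sites these counts were 2227, 2991 and 9879, and for lost sites 667, 551 and 1062. Among sites called in SKBr3, the HRG-specific part was therefore larger at gained and lost than at kept sites. SKBr3 lists pool 2 ChIP libraries, and sites of different lines are not replicates.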

How the data were processed

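ERRα ChIP-seq peaks of BT-474 cells given vehicle or HRG were used. Per the submitters' processing notes, BWA 0.5.9 and SAMtools 0.1.18 were run. The authors aligned reads to hg19, called peaks with MACS against the vehicle input at a P value cutoff of 1e-05 and deposited for each peak a score, taken here as −10 log10 of its P value from its minimum of 50. Scores depend on depth, which is unknown, and were compared between lists as ranks among kept sites. The members and lists were chosen with earlier results of these data known.

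Here peaks overlapping by 1 bp were merged into sites. At kept sites, words and GC content refer to the centre of the highest-scoring HRG peak. Words were sought in GRCh37 within 100 bp of the centre, on both strands, in 18 sets of which those of interest are printed, with flanks 2 kb away. Some words overlap: AAGGTCA and CAAGGTCA lie within TCAAGGTCA, the oestrogen response element shares GGTCA with them, and TGANTCA covers both AP-1 words, each of which lies within a printed word of 8 letters. Gene starts were those of 20136 protein-coding genes of GENCODE lifted to GRCh37. Named genes are those nearest the 8 gained, 8 lost and 4 kept sites of highest score (1 gene and 1 sequence that the rule picked are not reported here), 6 study genes, and up to 4 gained-only and 4 lost-only genes per list. Other listed genes with kept sites or no peak were named after their values were seen. No site on chromosome 8 was considered for the printed sequences. Further sequences, the largest shifts at kept sites, and the ranking of kept sites were chosen after the first results were seen. Merging, word search and gene assignment were tested on simulated data. Figures were drawn with matplotlib 3.10.9. Intervals came from scipy 1.17.1, sequence from pysam 0.24.0 after indexing with samtools 1.23.1, and tables from pandas 2.3.3 with numpy 2.4.6 under Python 3.11.15. Alternatives concerned score threshold, overlap, list size, windows, words and distances. The BT-474 EGF list was used only to look up the strongest sites.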

Additional observations from a re-analysis of the deposited data

How the results depend on the processing

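No paired analysis was possible because each BT-474 condition has 1 library, and no result carries a test. Of 70 alternative values 34 stayed within 1.5 times the count or within the interval of the value reported, and 36 moved. No difference between classes changed sign, but the order of the gained-only and lost-only gene counts turned with lists of equal size. The counts of gained and lost sites are nearly equal there by construction. Counts depended most on what is called a peak or an overlap. Gained sites numbered 8998 at a score of at least 80, 7394 at 100, 8347 with the HRG list at the size of the vehicle list and 27713 when centres had to lie within 100 bp. Beside the 8347 there were 8408 lost sites. The 100 bp rule left 13558 kept and 18701 lost sites, and a score of at least 100 left 4019 lost sites. With lists of equal size gained-only genes numbered 952 and lost-only genes 1894. The lost minus gained difference in promoter share was 8.86 percentage points within 500 bp of a start.

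The kept minus gained difference in ERRE share was 0.863 points at a score of at least 100, 1.06 within 50 bp and 6.18 for AAGGTCA, and the gained minus lost difference was 1.42, 0.293 within 50 bp (interval −0.160 to 0.710), 2.02 within 250 bp and 1.5 for AAGGTCA. The gained minus kept difference in AP-1 share was 4.31 points at a score of at least 100, 0.693 within 50 bp, 3.36 within 250 bp, 3.0 for TGANTCA and 3.08 with lists of equal size (a setting added after the data were seen). The gained minus lost difference was 7.42, 2.56, 10.3, 7.41 and 6.44 in the same order.

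At a score of at least 100, 18.1% of gained and 48.2% of kept sites were called in SKBr3 on vehicle, and 20.4% and 44.6% on HRG. With an overlap of 50% of both peaks the gained, kept and lost shares were 12.8%, 37.2% and 22.3% on vehicle and 13.2%, 32% and 21.6% on HRG. Lower shares follow from the stricter overlap itself, and the cause of the other moves was not tested.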

Other observations

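Some genes had many sites of a class within 20 kb of their starts. ZBTB7C on chromosome 18 had 9 gained, 6 kept and 2 lost sites. NEDD4L, a ubiquitin ligase gene on the same chromosome, had 7 gained and 16 kept sites, and EPS8, which encodes a substrate of the EGF receptor kinase, had 7 gained sites and no kept one. Among the genes with the most lost sites, MACF1 had 5 beside 8 kept sites. Genes with many annotated starts cover more sequence, and these 4 genes have 12, 29, 13 and 18 starts.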
